A study of Homo sapiens with 3 samples.

Results

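Transcripts of 8 genes of the Notch pathway were followed in 3 HaCaT lines: the receptors NOTCH1, NOTCH2 and NOTCH3, the ligands JAG1, JAG2 and DLL1, and the targets HES1 and HEY1. They were taken by gene symbol, and all 8 were found among the 55773 symbols of the expression table. HaCaT is an immortalised human keratinocyte line. All 3 lines expressed the oncogenic HRAS mutant G12V and grew in DMEM with fetal bovine serum. They differed in what was transduced on top of it: the THG-1 mutant S264A (a serine replaced by alanine), wild-type THG-1, or the empty vector. THG-1 is the product of TSC22D4, a leucine zipper protein of the TSC22 family. The sources used here do not say which promoter drove THG-1 or whether a line was 1 clone or a pool, and each line gave 1 library.

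Notch receptors are activated by ligands of the Jagged and Delta-like families on a neighbouring cell. Binding exposes the receptor to the protease ADAM10 and then to gamma-secretase, and the freed intracellular part enters the nucleus, joins the DNA-binding protein RBPJ and a Mastermind coactivator, and switches on repressor genes of the HES and HEY families. In the epidermis, Notch signalling is known for moving keratinocytes out of the basal layer and into differentiation.

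Levels are given in RPKM, reads scaled by gene length and library depth, so that different genes can be set side by side. The depths behind the RPKM values, worked out from those values, were 14022885 reads (S264A), 12733479 reads (wild type) and 32055052 reads (empty vector). Intervals on levels are exact Poisson and on ratios exact Clopper-Pearson 95% intervals. They cover counting error only, and reads are not independent molecules. No library had a replicate, so that a difference between lines cannot be told apart from a difference between cultures. A gene was counted as higher or lower when its difference on log2(RPKM + 1) was at least 1, a 2-fold change on that scale, with at least 1 RPKM in 1 of the 2 lines. TSC22D4 stood at 51.1 RPKM in the S264A line and 64.9 RPKM in the wild-type line, against 7.98 RPKM in the empty-vector line. All 10 genes listed as keratinocyte markers reached 1 RPKM in every library, with sums of 1789, 1957 and 1383 RPKM in the S264A, wild-type and empty-vector lines. The list includes KRT8 and KRT18, which are keratins of simple epithelia. KRT8 was at 126, 247 and 126 RPKM and KRT18 at 104, 246 and 101 RPKM in the same order of lines. The sums therefore do not rank the lines by keratinocyte markers alone. Of the endothelial (5), fibroblast (6), smooth muscle and pericyte (6) and immune (5) markers in the table, only the endothelial gene VWF reached 1 RPKM, at 1.51 RPKM in the S264A line. TEK, PDGFRA, LUM, CNN1 and DES were at 0 in all 3 libraries.

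The receptor NOTCH3 set the wild-type THG-1 line apart from the other lines. It was the only one of the 8 genes past the 2-fold rule in any comparison. NOTCH1 and JAG2 were most abundant in the S264A line and DLL1 in the wild-type line, and HES1 was lowest in the empty-vector line. NOTCH2, JAG1 and HEY1 differed least, with no ratio between lines above 1.22. In bulk RNA, fewer cells that express a gene and less RNA per cell cannot be told apart.

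All 8 genes could be compared in each pair of lines. Between S264A and wild type 1 of them was higher and 0 lower, where 1.55% of all genes were higher, 2.23% lower and 3.78% past the rule either way. Between S264A and empty vector 0 passed, where 2.99% of all genes were higher, 0.824% lower and 3.81% either way. Between wild type and empty vector 0 were higher and 1 lower, where 4.53% of all genes were higher, 1.54% lower and 6.07% either way. The called gene is NOTCH3 both times, and both comparisons use the same wild-type library.

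Counted by sign alone, differences were above 0 for 5 of the 8 genes between S264A and wild type (52.3% of all genes), for 8 of 8 between S264A and empty vector (52.2%) and for 4 of 8 between wild type and empty vector (49.5%). Their medians were 0.18, 0.27 and 0.00 in that order of comparisons, beside 0.02, 0.02 and -0.01 over all genes. Of the 8 between S264A and empty vector, HEY1 (0.00) turned negative under 3 scalings, to -0.11 at the lowest, and NOTCH2 and JAG1 under upper-quartile scaling, which sets the upper quartile of genes above 0 equal between libraries. The split of all called genes also moved with scaling. Between S264A and empty vector 78.4% of them were higher, and 59.3% with upper-quartile scaling. Between wild type and empty vector 74.6% were higher, and 51.8% with upper-quartile scaling and 62.7% when the sums of RPKM were made equal.

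**Figure D1:**
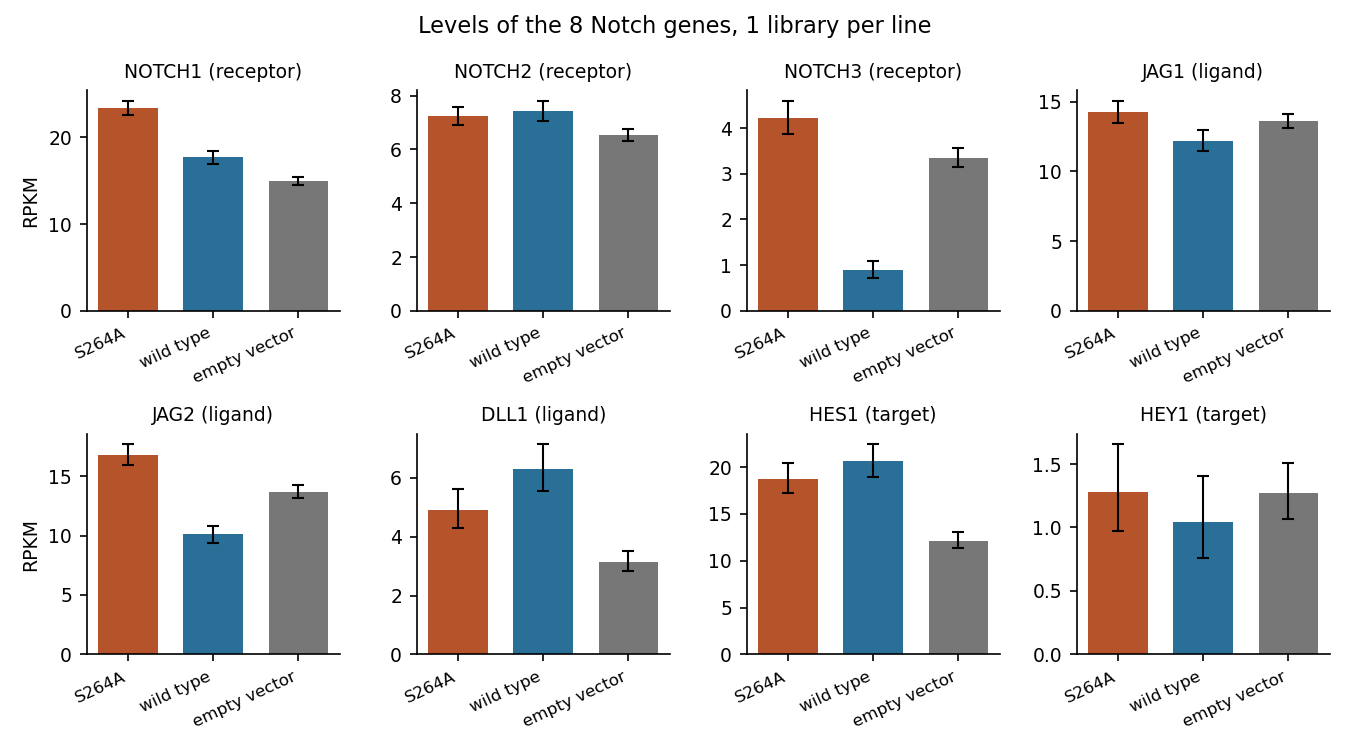
Levels of the 8 genes in RPKM, 1 panel per gene, with bars for the S264A, wild-type and empty-vector libraries from left to right and error bars for the exact Poisson 95% interval. NOTCH3 is at 0.893 RPKM in the wild-type library, below 4.21 RPKM in the S264A library and 3.35 RPKM in the empty-vector library.

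Among the receptors, NOTCH1, the main receptor of epidermal differentiation in mice, was at 23.4 RPKM in the S264A line, 17.7 RPKM in the wild-type line and 14.99 RPKM in the empty-vector line. The S264A level was 1.32-fold that of the wild-type line (1.25 to 1.39) and 1.56-fold that of the empty-vector line (1.49 to 1.63). The wild-type line stood 1.18-fold above the empty-vector line (1.12 to 1.24). The order S264A, wild type, empty vector was thus clear of counting error at each step. The last step turned to -0.02 on the log2 scale, against 0.23, with upper-quartile scaling, which by itself moved the median of all genes by -0.22 in that comparison.

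NOTCH2 was nearly level, at 7.24 RPKM in the S264A line, 7.43 RPKM in the wild-type line and 6.54 RPKM in the empty-vector line. The ratio of S264A to wild type was 0.974, with an interval of 0.909 to 1.04. Against the empty-vector line the log2 differences of 0.13 (S264A) and 0.16 (wild type) became -0.05 and -0.07 with upper-quartile scaling, which moved the median gene by -0.17 and -0.22. NOTCH2NL, a partial copy of NOTCH2 that shares sequence with it, was at 7.92, 7.38 and 6.52 RPKM in the S264A, wild-type and empty-vector lines. The labels do not say how reads that fit both genes were assigned, so the level of either is uncertain.

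NOTCH3 had 520 reads in the S264A library, 100 in the wild-type library and 946 in the empty-vector library. These are 4.21 RPKM (3.86 to 4.59) in the S264A line, 0.893 RPKM (0.726 to 1.09) in the wild-type line and 3.35 RPKM (3.14 to 3.57) in the empty-vector line. The wild-type line was thus the low one, and the S264A and empty-vector lines lay above it, 1.26-fold apart. S264A was 4.72-fold above wild type (3.81 to 5.91), a difference of 1.46 on log2(RPKM + 1), and only 60 of the 12069 genes compared differed by more in this direction. Wild type was 3.76-fold below the empty vector (3.06 to 4.67), a difference of -1.20, and 92 of 11993 genes lay lower. S264A was 1.26-fold above the empty vector (1.13 to 1.40), a difference of 0.26. NOTCH3 is also the main receptor of vascular smooth muscle and pericytes, and the 6 markers of these cells summed to 0.842 RPKM in the S264A line, 0.664 RPKM in the wild-type line and 0.959 RPKM in the empty-vector line, with CNN1 and DES at 0. Both calls rest on levels of a few RPKM. With a pseudocount of 5 the differences shrank to 0.65 (S264A against wild type) and -0.50 (wild type against empty vector), short of the 2-fold rule.

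The makeup of the receptor pool followed from these levels. NOTCH1 made up 67.05% of the summed RPKM of NOTCH1 to NOTCH4 in the S264A line, 67.9% in the wild-type line and 60.1% in the empty-vector line. NOTCH3 made up 12.1%, 3.42% and 13.5% in the same order of lines. NOTCH1 was therefore the leading receptor in every line, and NOTCH3 a minor one with its smallest share in the wild-type line. NOTCH4, an endothelial receptor, stayed under 0.05 RPKM, with 5, 6 and 13 reads in the S264A, wild-type and empty-vector libraries.

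**Figure D2:**
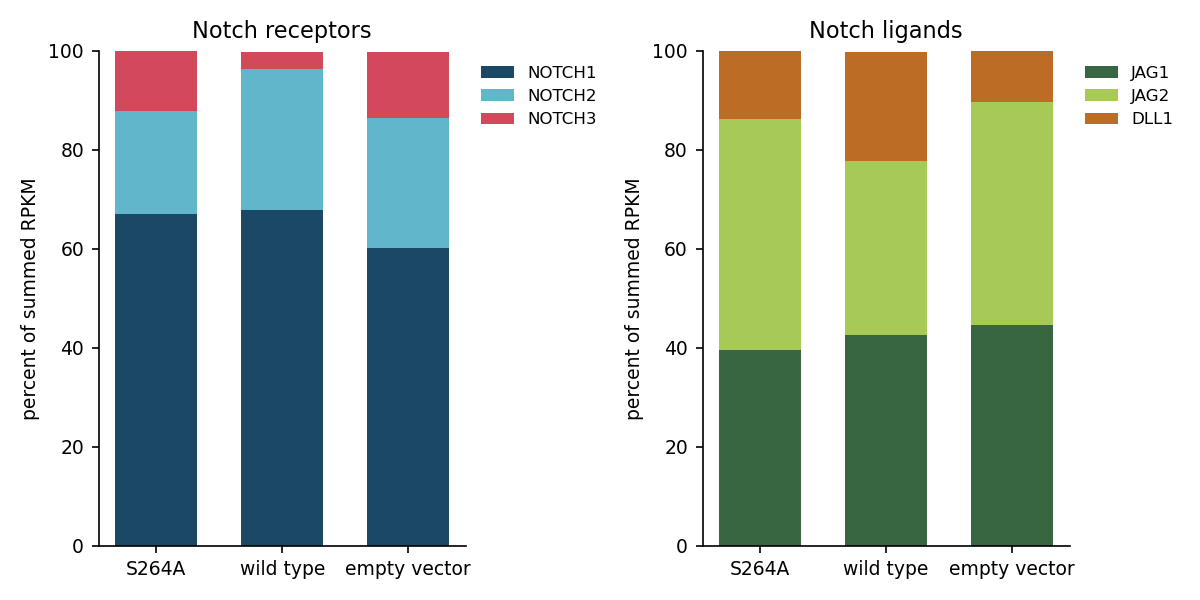
Share of each gene in the summed RPKM of NOTCH1 to NOTCH4 (left) and of JAG1, JAG2, DLL1, DLL3 and DLL4 (right), in percent, for the S264A, wild-type and empty-vector libraries. NOTCH4, DLL3 and DLL4 are too low to be drawn. The wild-type library has the smallest share of NOTCH3 (3.42%) and the largest share of DLL1 (22.02%).

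Among the ligands, JAG2 followed an order like that of NOTCH3 with smaller steps. It was at 16.8 RPKM in the S264A line, 10.09 RPKM in the wild-type line and 13.7 RPKM in the empty-vector line. The S264A level was 1.66-fold that of wild type (1.53 to 1.81) and 1.23-fold that of the empty vector (1.15 to 1.31), and wild type held 0.736 times the level of the empty vector (0.681 to 0.796). All 3 intervals leave out 1, and none of the differences reached 2-fold.

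JAG1, the other Jagged ligand, was at 14.3 RPKM in the S264A line, 12.2 RPKM in the wild-type line and 13.6 RPKM in the empty-vector line. S264A and empty vector were not told apart by counting (ratio 1.05, 0.979 to 1.12), and the sign of their log2 difference of 0.06 turned (-0.13) with upper-quartile scaling. Wild type was the lowest, at 0.893 times the empty vector (0.830 to 0.959). The table holds a second JAG1 row that was at 0 in all libraries.

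DLL1, a Delta-like ligand known from the stem cell clusters of human epidermis, was highest in the wild-type line, where both Jagged genes were lowest. It was at 4.92 RPKM in the S264A line, 6.31 RPKM in the wild-type line and 3.16 RPKM in the empty-vector line. The wild-type level was 2.00-fold that of the empty vector (1.69 to 2.36), the largest among JAG1, JAG2 and DLL1, but on log2(RPKM + 1) the difference was 0.81, under the rule. S264A was 1.56-fold above the empty vector (1.31 to 1.86) and at 0.780 times the wild type (0.648 to 0.938). The reads behind DLL1 were recovered only up to a common factor. With the smallest that fitted, the interval for S264A over wild type widened to 0.562 to 1.08, which includes 1, and that for wild type over empty vector to 1.49 to 2.68.

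Each line thus carried its ligands in different proportions. JAG2 made up 46.6% of the summed ligand RPKM in the S264A line, 35.2% in the wild-type line and 44.9% in the empty-vector line, and DLL1 13.7%, 22.02% and 10.3% in the same order. The DLL1 level was 0.293, 0.625 and 0.230 times that of JAG2 in the S264A, wild-type and empty-vector lines. DLL3 was at 0 in all libraries and DLL4, an endothelial ligand, had 3, 5 and 5 reads.

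Between the targets, HES1 and HEY1 did not move alike. HES1 encodes a basic helix-loop-helix repressor and is a direct target of the Notch and RBPJ complex. It was at 18.8 RPKM in the S264A line, 20.6 RPKM in the wild-type line and 12.1 RPKM in the empty-vector line. Both THG-1 lines lay above the empty vector, S264A by 1.55-fold (1.38 to 1.73) and wild type by 1.70-fold (1.52 to 1.89). The ratio of S264A to wild type was 0.911, with an interval of 0.808 to 1.03 that includes 1.

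HEY1, a related repressor better known from vessels and mesenchyme, was low in every line, at 1.28 RPKM (58 reads) in S264A, 1.04 RPKM (43 reads) in wild type and 1.27 RPKM (132 reads) in the empty vector. Its 3 ratios had intervals of 0.811 to 1.86 for S264A over wild type, 0.724 to 1.38 for S264A over empty vector and 0.567 to 1.16 for wild type over empty vector. At this depth no difference in HEY1 was detectable, and changes of up to 1.86-fold lie inside these intervals.

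**Figure D3:**
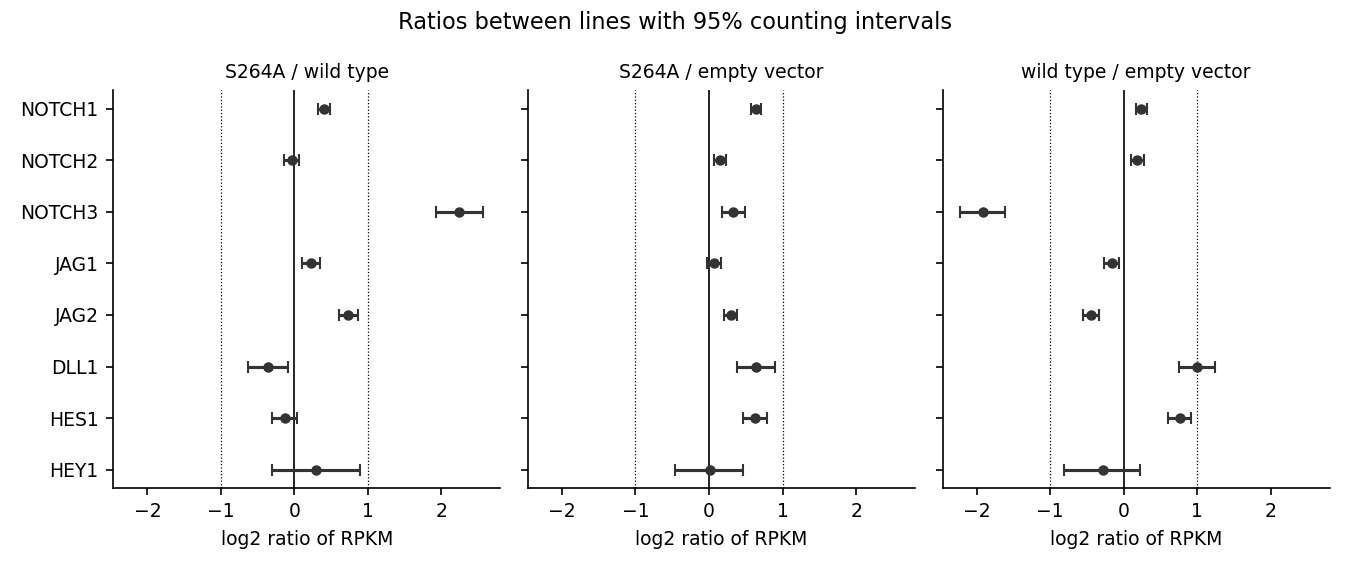
Log2 ratios of RPKM for the 8 genes in the 3 comparisons, with exact 95% counting intervals as horizontal bars, a solid line at 0 and dotted lines at 2-fold. NOTCH3 lies past 2-fold to the right for S264A over wild type (4.72-fold) and to the left for wild type over empty vector (0.266-fold), and DLL1 lies at the dotted line for wild type over empty vector.

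Within a line the 8 genes ranked in different orders. In the S264A line NOTCH1 led, followed by HES1, JAG2, JAG1, NOTCH2, DLL1, NOTCH3 and HEY1, with overlapping intervals for HES1 and JAG2 and for DLL1 and NOTCH3. In the wild-type line HES1 led, followed by NOTCH1, JAG1, JAG2, NOTCH2, DLL1, HEY1 and NOTCH3, with overlaps between NOTCH2 and DLL1 and between HEY1 and NOTCH3. In the empty-vector line the order was NOTCH1, JAG2, JAG1, HES1, NOTCH2, NOTCH3, DLL1 and HEY1, with overlaps between JAG2 and JAG1 and between NOTCH3 and DLL1.

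Other genes of the HES family, repressors related to HES1, also differed between the lines. HES2 was at 9.73 RPKM in the S264A line, 7.81 RPKM in the wild-type line and 3.30 RPKM in the empty-vector line, so that both THG-1 lines passed the rule against the empty vector, S264A by 2.95-fold (2.64 to 3.30) and wild type by 2.37-fold (2.10 to 2.67). HES4 stood at 20.6 RPKM in the S264A line, 13.6 RPKM in the wild-type line and 9.26 RPKM in the empty-vector line, and S264A passed the rule against the empty vector (2.22-fold, 1.90 to 2.60). The wild-type call on HES2 was lost with the quantile-normalised values and with upper-quartile and equal-sum scaling, and the S264A call on HES4 with upper-quartile scaling. With a pseudocount of 5 the HES2 calls of both THG-1 lines and the HES4 call were lost. HES1, HES2 and HES4 were all lowest in the empty-vector line.

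HES5 and HES7 split the THG-1 lines instead. HES5, a Notch target best known from neural progenitors, was at 3.00 RPKM (55 reads) in the S264A line, 0.301 RPKM (5 reads) in the wild-type line and 0.955 RPKM (40 reads) in the empty-vector line. S264A was 9.99-fold above wild type (4.03 to 31.98) and 3.14-fold above the empty vector (2.05 to 4.85). The call against the empty vector was lost with the quantile-normalised values and with upper-quartile scaling, and both calls were lost with a pseudocount of 5 and with a filter at 5 RPKM. HES5 was thus lowest in the same line as NOTCH3. HES7, a repressor of the segmentation clock, was at 0.229 RPKM (6 reads) in the S264A line, 1.72 RPKM (41 reads) in the wild-type line and 0.1002 RPKM (6 reads) in the empty-vector line. It was 7.53-fold lower in S264A than in wild type (3.18 to 21.7) and 17.2-fold higher in wild type than with empty vector (7.26 to 49.6). HES5 and HES7 rest on few reads, and both calls on HES7 were also lost with a pseudocount of 5 and with a filter at 5 RPKM.

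The bases before the start of HES1 and of these 4 relatives are shown because the pathway reaches its direct targets through RBPJ on DNA. Whether each of the 4 relatives is a direct target was not tested. The promoter sequences are from RefSeq (GRCh38.p14), 250 bases up to the annotated start, written on the strand of the gene, and 6 of the 8 genes described here had an entry, all but DLL1 and HEY1. HES1 is at chr3:194135898-194136147 (plus strand), HES2 at chr1:6419920-6420169, HES4 at chr1:1000098-1000347 and HES5 at chr1:2530264-2530513 (all minus strand), and HES7 at chr17:8124107-8124356 (minus strand). Capitals mark the core letters of the RBPJ motif, TGGGAA, searched on both strands, where the other strand reads TTCCCA.
HES1: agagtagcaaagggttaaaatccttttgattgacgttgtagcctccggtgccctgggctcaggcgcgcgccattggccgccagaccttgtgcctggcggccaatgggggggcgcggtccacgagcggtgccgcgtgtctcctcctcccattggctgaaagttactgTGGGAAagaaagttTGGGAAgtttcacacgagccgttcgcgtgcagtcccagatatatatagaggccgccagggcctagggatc
HES2: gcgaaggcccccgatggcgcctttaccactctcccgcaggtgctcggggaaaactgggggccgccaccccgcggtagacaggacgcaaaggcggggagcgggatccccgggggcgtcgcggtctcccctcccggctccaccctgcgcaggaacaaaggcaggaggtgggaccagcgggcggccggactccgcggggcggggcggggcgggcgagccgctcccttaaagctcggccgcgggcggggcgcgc
HES4: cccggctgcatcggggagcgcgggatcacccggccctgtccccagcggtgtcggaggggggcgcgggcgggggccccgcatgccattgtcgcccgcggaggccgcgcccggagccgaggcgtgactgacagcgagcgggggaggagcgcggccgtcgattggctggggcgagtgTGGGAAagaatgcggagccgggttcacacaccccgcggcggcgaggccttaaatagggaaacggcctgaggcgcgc
HES5: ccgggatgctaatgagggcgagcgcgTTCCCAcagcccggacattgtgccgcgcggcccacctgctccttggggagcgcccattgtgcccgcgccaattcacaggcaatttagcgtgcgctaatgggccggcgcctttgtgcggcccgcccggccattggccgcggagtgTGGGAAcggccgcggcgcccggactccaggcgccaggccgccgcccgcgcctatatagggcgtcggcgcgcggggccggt
HES7: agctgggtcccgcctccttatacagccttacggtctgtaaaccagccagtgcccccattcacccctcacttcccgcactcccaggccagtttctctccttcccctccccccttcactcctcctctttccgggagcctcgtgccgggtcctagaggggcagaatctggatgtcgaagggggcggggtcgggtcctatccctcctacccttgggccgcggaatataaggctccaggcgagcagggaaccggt

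HES1 holds the core from 84 and from 70 bases before the start, HES4 from 76 bases, and HES5 from 80 bases and, on the other strand, from 224 bases. HES2 and HES7 have no match in this window, nor have NOTCH1, NOTCH2, NOTCH3, JAG1 and JAG2. Of 27305 RefSeq genes, each with its first listed start, 21.1% hold the core at least once in a window of this length and 2.92% 2 or more times. The longer form GTGGGAA, which includes the core, occurs in HES1, HES4 and HES5 and in 5.46% of all windows. A match describes letters and shows no binding. HES1 and HES4, with a core, and HES2 and HES7, without one, were all lowest in the empty-vector line. HES7 had only 6 reads there and 6 in the S264A library. HES5, with a core on each strand, was lowest in the wild-type line. A link between the core and these levels was not tested.

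**Figure D4:**
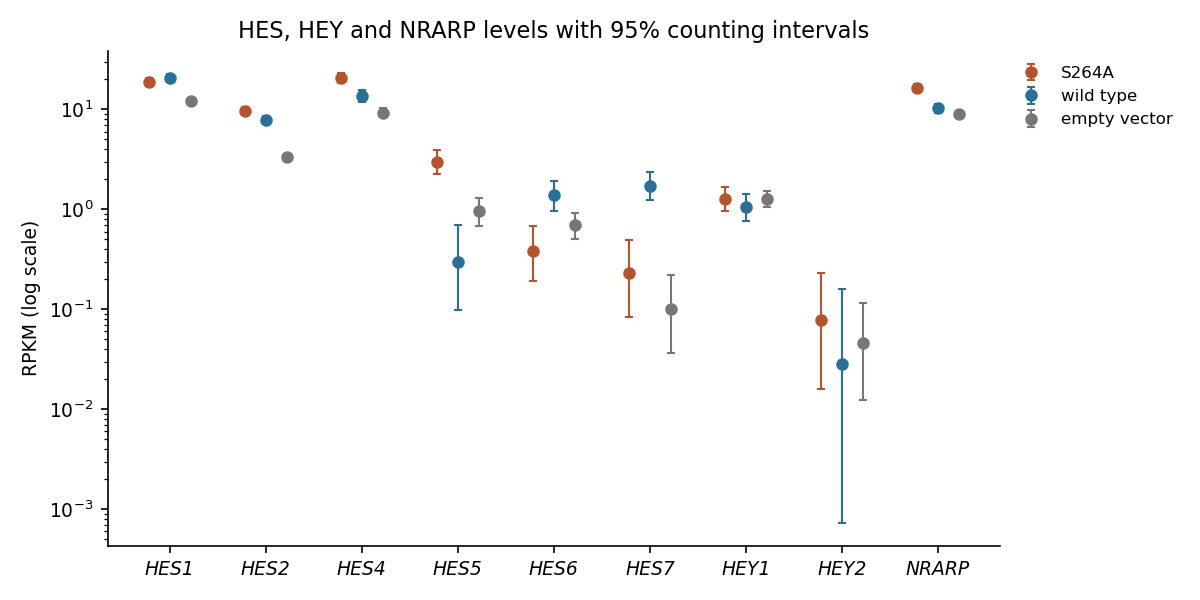
Levels of HES, HEY and NRARP genes in RPKM on a log axis, with points for the S264A, wild-type and empty-vector libraries from left to right and bars for exact Poisson 95% intervals. HEYL was at 0 in every library and is not drawn. HES5 is highest in S264A (3.00 RPKM) and HES7 in wild type (1.72 RPKM).

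NRARP, a Notch-induced feedback inhibitor, was at 16.4 RPKM in the S264A line, 10.2 RPKM in the wild-type line and 8.97 RPKM in the empty-vector line, and was singled out after its values were seen. S264A stood 1.60-fold above wild type (1.40 to 1.83) and 1.83-fold above the empty vector (1.64 to 2.04), under the rule with differences of 0.63 and 0.80. The order of the lines was that of NOTCH1, with wild type only 1.14-fold above the empty vector (1.002 to 1.30). That step was a difference of 0.17, where upper-quartile scaling moved the median of all genes by -0.22. HES6, which counteracts HES1 in mice, was at 0.385, 1.39 and 0.689 RPKM in the S264A, wild-type and empty-vector lines. With 11 and 36 reads, S264A was 3.60-fold below wild type (1.79 to 7.85), a difference of -0.79. It passed the rule with a pseudocount of 0.1 (-1.62). HEY2 had at most 4 reads.

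Beyond the targets, 61 further pathway genes in 9 role lists were in the table, of which 49 reached 1 RPKM in at least 1 library. Of those that could be compared (48, 47 and 46), 2 were higher and 1 lower between S264A and wild type, 5 higher and 0 lower between S264A and empty vector, and 5 higher and 0 lower between wild type and empty vector. Over all genes, 1.55% were higher and 2.23% lower, 2.99% higher and 0.824% lower, and 4.53% higher and 1.54% lower in the same comparisons. The split between wild type and empty vector moved to 4 higher and 3 lower (LFNG, MIB1 and TGM1) with upper-quartile scaling, and to 5 higher and 2 lower (LFNG and TGM1) with a pseudocount of 0.1. The median differences over all 61 genes, including those too low to be compared, were 0.02, 0.06 and 0.01 in that order of comparisons. The medians of 0.02, 0.02 and -0.01 over the whole table hold compared genes only, so the sets are unlike. With a pseudocount of 1 and RPKM as deposited, every call fell in the list of HES, HEY and NRARP genes or in that of keratinocyte genes linked to Notch.

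**Figure D5:**
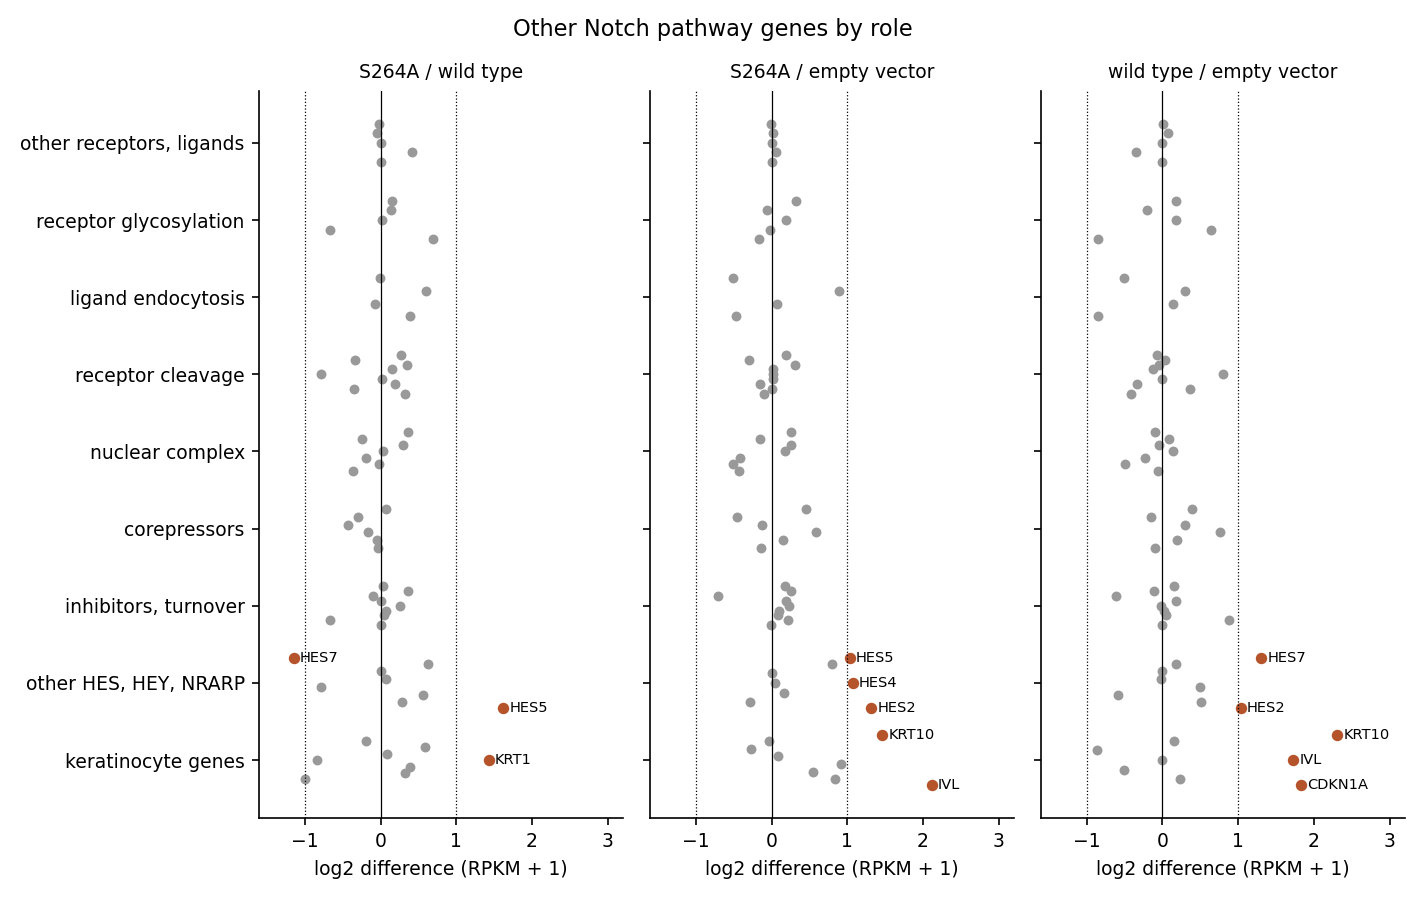
Differences on log2(RPKM + 1) of 61 further pathway genes by role, 1 point per gene, for the 3 comparisons, with dotted lines at 2-fold. Coloured, named points passed the 2-fold rule, and all of them are in the 2 lowest rows.

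In the lists of receptor cleavage, the nuclear complex and corepressors no gene passed the rule on log2(RPKM + 1), a scale that damps low genes. SNW1, a nuclear cofactor of the Notch complex, was at 28.6 RPKM in the S264A line, 22.2 RPKM in the wild-type line and 23.9 RPKM in the empty-vector line. RBPJ itself, singled out for its role after its values were seen, stood at 1.80 RPKM in the S264A line, 2.31 RPKM in the wild-type line and 2.11 RPKM in the empty-vector line. Differences over the 7 genes of the nuclear complex ran between -0.37 and 0.36 for S264A against wild type, -0.51 and 0.25 for S264A against empty vector, and -0.50 and 0.13 for wild type against empty vector. KAT2B, a low gene of this list, was singled out after its values were seen. It was 2.18-fold lower in S264A (1.58 to 3.07) and 2.12-fold lower in wild type (1.52 to 3.02) than with empty vector. With a pseudocount of 0.1 its S264A difference passed the rule, at -1.001. The corepressor gene SPEN was at 16.0, 16.6 and 14.4 RPKM in the S264A, wild-type and empty-vector lines.

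Among 9 genes of receptor cleavage, FURIN, which encodes the convertase that trims the receptor on its way to the surface, was the most abundant. It was at 28.2 RPKM in the S264A line, 49.5 RPKM in the wild-type line and 28.0 RPKM in the empty-vector line. Wild type was 1.77-fold above the empty vector (1.69 to 1.85), and S264A over empty vector had an interval of 0.955 to 1.07, which includes 1. MIB1, a ubiquitin ligase that activates ligands in the signal-sending cell, was at 6.92 RPKM in the S264A line, 5.08 RPKM in the wild-type line and 9.94 RPKM in the empty-vector line. With upper-quartile scaling MIB1 passed the rule between wild type and empty vector, at -1.08. NEURL1 and NEURL1B, which encode ubiquitin ligases of the Neuralized family and were singled out after their values were seen, were low. NEURL1 was at 1.11 RPKM (77 reads) in the S264A line, 0.396 RPKM (25 reads) in the wild-type line and 0.138 RPKM (22 reads) in the empty-vector line. It was 8.001-fold higher in S264A than with empty vector (4.93 to 13.5), a difference of 0.89 on log2(RPKM + 1) that passed the rule with a pseudocount of 0.1 (2.34). NEURL1B, under 1 RPKM in every line and so not compared by the rule, was 4.59-fold lower in S264A (2.54 to 9.13) and 4.55-fold lower in wild type (2.46 to 9.35) than with empty vector.

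The leading genes of other lists stayed under the rule. POFUT1, which adds the O-fucose that receptors need, was at 11.4, 11.3 and 9.85 RPKM in the S264A, wild-type and empty-vector lines. ITCH, a ubiquitin ligase of receptor turnover, stood at 17.8 RPKM in the S264A line, 17.7 RPKM in the wild-type line and 15.5 RPKM in the empty-vector line. DLK2, a Delta-like protein without the usual ligand domain, was at 5.23 RPKM in the S264A line, 3.69 RPKM in the wild-type line and 4.98 RPKM in the empty-vector line. S264A stood 1.42-fold above wild type (1.10 to 1.83), and wild type 1.35-fold below the empty vector (1.08 to 1.70).

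Of 8 keratinocyte genes linked to Notch, 7, 7 and 6 could be compared. Between S264A and wild type 1 was higher (1.55% of all genes), between S264A and empty vector 2 (2.99%) and between wild type and empty vector 3 (4.53%), with 0 lower in each. KRT1, a keratin of the spinous layer, was at 1.86 RPKM (65 reads) in the S264A line, 0.0631 RPKM (2 reads) in the wild-type line and 0.514 RPKM (41 reads) in the empty-vector line. S264A stood 29.5-fold above wild type, with a wide interval of 7.85 to 249 set by the 2 reads, and the call was lost with a pseudocount of 5 and with a filter at 5 RPKM. Its partner KRT10 was at 17.5 RPKM in the S264A line, 32.1 RPKM in the wild-type line and 5.68 RPKM in the empty-vector line, so that S264A (3.07-fold) and wild type (5.64-fold) both passed the rule against empty vector. The keratins of this pair were thus lowest in different lines, KRT1 in the wild-type line with NOTCH3 and KRT10 in the empty-vector line.

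IVL, which encodes the envelope protein involucrin, was at 15.3 RPKM in the S264A line, 11.5 RPKM in the wild-type line and 2.77 RPKM in the empty-vector line. It was 5.53-fold higher in S264A (4.66 to 6.58) and 4.15-fold higher in wild type (3.46 to 4.996) than with empty vector. CDKN1A, which encodes the cell cycle inhibitor p21, a Notch target in mouse keratinocytes, was at 16.5 RPKM in the S264A line, 33.9 RPKM in the wild-type line and 8.78 RPKM in the empty-vector line. It passed the rule between wild type and empty vector (3.86-fold, 3.54 to 4.22) and lay just short of it between S264A and wild type, at -0.998. S264A was 2.06-fold below wild type (1.87 to 2.26), and this difference passed the rule with a pseudocount of 0.1 (-1.04). TGM1, which encodes a transglutaminase of the cornified envelope and was singled out after its values were seen, ran the other way. It was at 4.85 RPKM in the S264A line, 2.90 RPKM in the wild-type line and 6.08 RPKM in the empty-vector line. Wild type was 2.10-fold below the empty vector (1.74 to 2.53), a difference of -0.86 that passed the rule as lower with upper-quartile scaling (-1.07) and with a pseudocount of 0.1 (-1.04).

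The genes closest to NOTCH3 in their pattern over the 3 libraries were HMGN3, UPK3BL and MRFAP1L1. Likeness was the distance between log2(RPKM + 1) values centred on each gene's mean, over 5656 genes averaging at least 5 RPKM, and came to 0.0491, 0.0682 and 0.172. HMGN3, which encodes a nucleosome-binding protein, was at 13.1 RPKM in the S264A line, 4.23 RPKM in the wild-type line and 11.3 RPKM in the empty-vector line. UPK3BL, which has close copies that could share its reads, was at 82.6, 28.97 and 64.6 RPKM in the S264A, wild-type and empty-vector lines, and MRFAP1L1 was at 13.97, 5.13 and 10.99 RPKM. With 3 libraries many genes can share a pattern.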

How the data were processed

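RNA was sequenced from 3 HaCaT lines, 1 library each, per the labels. The authors deposited 1 table of 57773 rows with 2 RPKM columns per library. The first is RPKM as the authors computed it, which was used here. The second was found from the values to be the same RPKM quantile-normalised across libraries by the authors, and served as an alternative. Genome build hg19 is named by the submitters' processing notes. Aligner, counter, annotation and strand setting: not given in the sources used here.

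For the 234 of 55773 symbols that occur in more than 1 row, values come from whichever row has the highest mean RPKM. RPKM moves in steps of 1 read over gene length and depth. Depth was the commonest value of this step over genes with 1 exon and a GENCODE release 29 length. Reads of a gene were those at which all libraries came out whole within 0.001 reads, at the fitting length nearest to GENCODE's. The recovery was run on simulated data, with no outcome given here. For NOTCH1, NOTCH2, NOTCH3, JAG1 and DLL1 the fitting length was not GENCODE's own, so their reads are inferred. Reads gave the 95% intervals only, and no count test was run.

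With 1 library per line there is no test and no p-value. Differences were log2((RPKM a + 1)/(RPKM b + 1)), which understates changes of low genes. The genes, lists and rules were chosen with earlier results of these data known. Named were the 8 genes, any listed pathway gene past the 2-fold rule, the most abundant gene of each role list, and the 3 genes nearest in pattern to a gene that spans at least 2-fold. Exceptions are marked. Some listed genes are not reported here and were left out of the counts. Alternatives were pseudocounts of 0.1 and 5, no filter, a filter at 5 RPKM, the quantile-normalised columns, upper-quartile and equal-sum scaling, and summed rows. Python 3.11.15, numpy 2.4.6, pandas 2.3.3, scipy 1.17.1 and matplotlib 3.10.9 were used.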

Additional observations from a re-analysis of the deposited data

How the results depend on the processing

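Of 24 differences of the 8 Notch genes between lines, 18 kept their sign under all 6 alternatives applied to single genes, and 6 changed it under a scaling. These were the 3 of NOTCH2, NOTCH1 between wild type and empty vector, and JAG1 and HEY1 between S264A and empty vector. A pseudocount cannot change a sign, and summed rows gave the same values for the 8 genes. Only the quantile-normalised columns and the upper-quartile and equal-sum scalings could therefore have changed one. The NOTCH3 difference ranged from 0.65 to 2.12 for S264A against wild type and from -1.80 to -0.50 for wild type against empty vector. With a pseudocount of 5, or a filter at 5 RPKM that leaves NOTCH3 out, 0 of the 8 genes passed the 2-fold rule for S264A against wild type and for wild type against empty vector, in place of 1 each.

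For S264A against wild type the further pathway genes past the rule numbered 3, and 6 with a pseudocount of 0.1, 0 with one of 5 and 0 with a filter at 5 RPKM. For S264A against empty vector they numbered 5, and 8 with a pseudocount of 0.1, 2 with one of 5 and 3 with upper-quartile scaling. For wild type against empty vector they numbered 5, and 3 with a pseudocount of 5, 7 with one of 0.1 (2 of them lower) and 7 with upper-quartile scaling (3 of them lower). Over all genes the counts were 456, 458 and 728 in that order of comparisons, 1027, 941 and 1361 with a pseudocount of 0.1, 89, 94 and 184 with one of 5, and 220, 204 and 387 with a filter at 5 RPKM. A larger pseudocount damps low genes by construction. No paired analysis was possible because each line has 1 library. Depth limits genes with few reads, such as HEY1, HES5, HES7, KRT1 and HEY2.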

Other observations

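Fringe enzymes extend the O-fucose on Notch receptors and so shift them between Delta-like and Jagged ligands. Of the 3 Fringe genes, LFNG and MFNG differed between the lines in opposite directions, and were singled out after their values were seen. LFNG was at 2.90 RPKM in the S264A line, 1.42 RPKM in the wild-type line and 3.37 RPKM in the empty-vector line. MFNG was at 1.24 RPKM in the S264A line, 2.56 RPKM in the wild-type line and 1.27 RPKM in the empty-vector line. The wild-type line was thus lowest for LFNG, 2.37-fold below the empty vector (1.80 to 3.16), and highest for MFNG, 2.01-fold above it (1.53 to 2.64). On log2(RPKM + 1) these differences were -0.85 and 0.65, under the 2-fold rule, and LFNG passed it with a pseudocount of 0.1 (-1.19) and with upper-quartile scaling (-1.04). RFNG, the other Fringe gene, showed neither pattern, at 3.798 RPKM in the S264A line, 3.33 RPKM in the wild-type line and 2.83 RPKM in the empty-vector line. Its ratio of wild type to empty vector was 1.17, with an interval of 0.954 to 1.44 that includes 1.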
